A study of Homo sapiens with 8 samples.

Results

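CMIP encodes an adaptor protein, named for its link to c-Maf, that is best known from signalling in T cells and from kidney disease. Its transcript was examined here for RNA that an antibody against RBPMS pulled down. Members were all peaks on the plus strand of chromosome 16 that overlap positions 81478000 to 81746000 (build hg19), 311 of the 194003 peaks listed in 4 libraries. Of these, 32 lie in a run between 81610500 and 81611892, which was chosen by the log2 fold and p of its peaks, and the other 279 lie in the rest of the window.

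RBPMS is an RNA-binding protein with an RNA recognition motif that binds pairs of short CAC elements, and it is best known for its part in splicing and in the handling of mRNA. In eCLIP, ultraviolet light joins protein to the RNA it touches, the protein is immunoprecipitated, and the attached RNA is sequenced and set against input RNA from the same kind of lysate. Reads from an unspliced transcript can fall in introns as well as in exons, so a long gene offers RNA far beyond its mature mRNA.

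The antibody group was 4 eCLIP libraries from HUES6, a line of human embryonic stem cells with the genotype given as WT and the treatment as control, grown in FTDA medium. The other group was 4 Input libraries of the same cells with no antibody, and all groups share the crosslinking of about 20M cells at 400 mJ/cm2. Input enters only through the authors' 2 values per peak, the log2 fold of immunoprecipitation over input and its −log10 p. The cells were not checked against stem cell markers, since peak lists give no expression levels. The line is a single one, no library without RBPMS was analysed here, and nothing states that the libraries came from separate cultures, which leaves the spread between libraries possibly technical. In bulk lysate, strong enrichment in a few cells and weak enrichment in many cannot be told apart.

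Libraries 1, 2, 3 and 4 listed 25759, 118375, 20254 and 29615 peaks in all. The reads behind a peak were worked back from its 2 values. Over 358 shared peaks, the immunoprecipitation reads of libraries 3 and 4 did not differ beyond sampling noise (chi-square of 1.05 per degree of freedom, p = 0.244). The other pairs gave 6.66 to 12.6. Input reads were not compared, so folds of libraries 3 and 4 could still differ. Libraries 3 and 4 were counted as 1 sample, so each mean ± SD is over n = 3 samples. Below, an enriched peak is one at least 8-fold over input (log2 of at least 3) with −log10 p of at least 3.

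No exon or intron positions of CMIP on hg19 were used, so whether the run is intronic was not tested. RefSeq places 5 other genes inside the CMIP span, namely the pseudogene PPIAP51, the microRNA genes MIR7854 and MIR6504, and the long noncoding RNA genes LOC105371362 and LOC100129617. Their positions are on another build, so whether a peak belongs to one of them was not tested. No sequence under the peaks was used.

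All listed peaks of the window were on the plus strand, the strand of CMIP, with 65, 128, 49 and 69 in libraries 1, 2, 3 and 4. The minus strand of the same window had 0 listed peaks in each library. Flanks of the same length held few peaks. On the plus strand, 1, 5, 0 and 1 were listed before the window and 1, 3, 1 and 2 after it, and 0 of these were enriched.

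**Figure D1:**
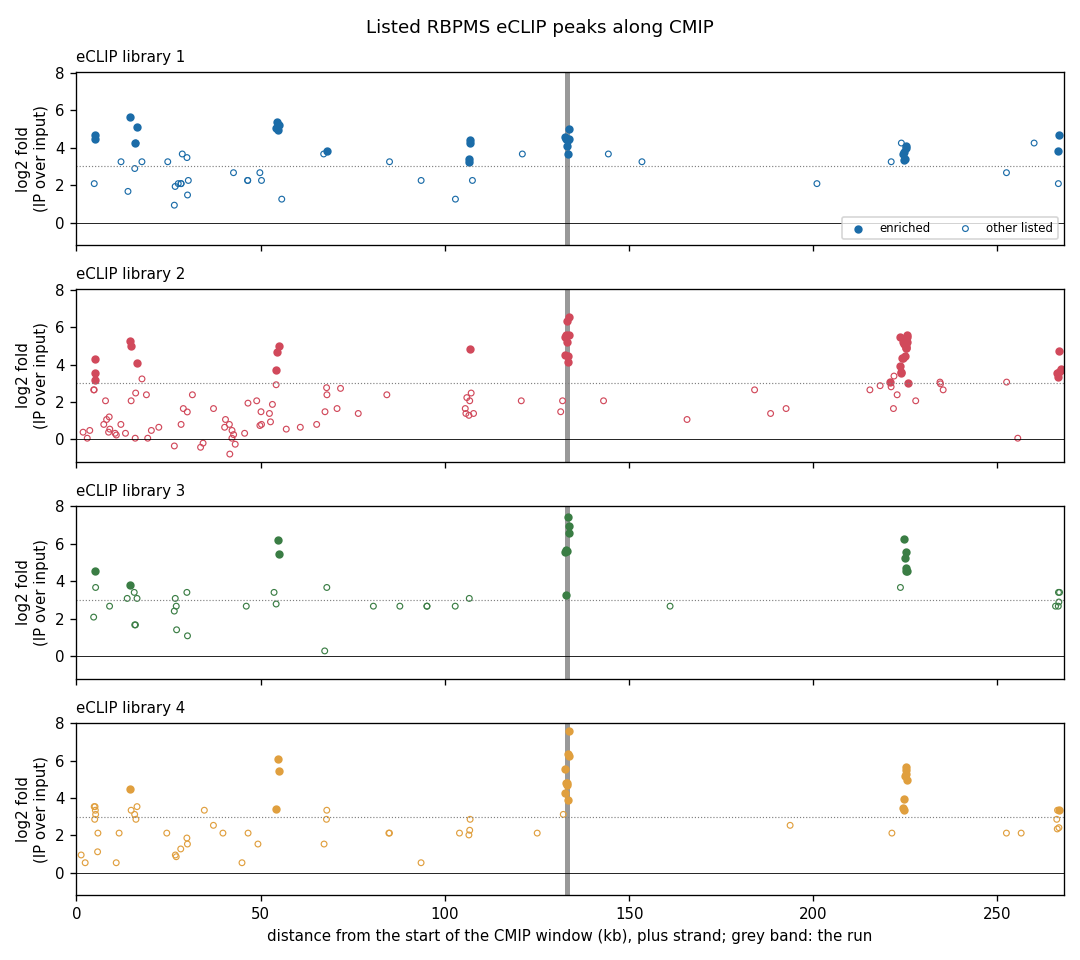
Log2 fold of immunoprecipitation over input (vertical axis) of every listed plus-strand peak by distance from the start of the CMIP window in kb (horizontal axis), with 1 panel per eCLIP library. Filled points are enriched peaks, open points other listed peaks, the dotted line the log2 threshold of 3 and the grey band the run. Enriched peaks gather in the run, in a group about 91 kb after it, and in smaller groups before it.

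Every listed peak of the run was enriched, 7 of 7 in library 1, 9 of 9 in library 2, 7 of 7 in library 3 and 9 of 9 in library 4. In the rest of CMIP 22 of 58, 33 of 119, 10 of 42 and 13 of 60 listed peaks were enriched. Among all listed peaks of the series the enriched share was 15.9%, 5.38%, 12.6% and 12.7% in libraries 1, 2, 3 and 4. The run was picked for these values, so its counts are a description and carry no test.

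The rest of CMIP had an enriched share of 37.9% in library 1 (Wilson 95% interval 26.6 to 50.8), 27.7% in library 2 (20.5 to 36.4), 23.8% in library 3 (13.5 to 38.5) and 21.7% in library 4 (13.1 to 33.6). Each value lies above its library's share over all peaks. The excess was not even along CMIP, as counts for libraries 1, 2, 3 and 4 show. In the downstream group described below, 6 of 7, 16 of 16, 6 of 7 and 8 of 8 listed peaks were enriched. In the 132 kb before the run, 14 of 42, 10 of 79, 4 of 29 and 4 of 43 were. Between the run and that group, 0 of 4, 1 of 12, 0 of 1 and 0 of 2 were, and after the group 2 of 5, 6 of 12, 0 of 5 and 1 of 7. Without the downstream group, the share of the rest lay above that of the series in libraries 1 and 2. It lay below in libraries 3 and 4. Peaks of the rest of CMIP also held more reads than peaks of the series, with a median of 6, 12, 5 and 6 immunoprecipitation reads against 4, 8, 4 and 4 where reads could be worked back. In library 2 that was possible for 75 of 119 peaks of the rest and 36839 of 118375 of the series, which are unlike subsets. The part of read number in the share was not tested, and CMIP was picked with such results known, so no test is given. With a log2 fold of at least 1 in place of 3, the rest of CMIP had a mean count of 21.8 enriched peaks per library against 19.5. The enriched share over all listed peaks of the series was then 18.2%, 7.37%, 13.7% and 14% in libraries 1 to 4. With a −log10 p of at least 5 the mean count was 17, and the series shares were 11.4%, 4.06%, 7.75% and 8.46%. These counts and shares are unlike measures, and the share of the rest at these settings was not computed. The intervals cover counting error only and treat peaks as independent, which abutting peaks of 1 stretch may not be. The downstream group alone holds 36 of the 78 enriched peaks of the rest. The intervals are therefore no test against the series shares.

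Among enriched peaks, the mean log2 fold of the run was 4.37, 5.30, 5.87 and 5.37 in libraries 1, 2, 3 and 4, against 4.30, 4.34, 5.10 and 4.63 in the rest of CMIP. Over samples this is 5.10 ± 0.65 in the run against 4.50 ± 0.31 in the rest of CMIP and 4.53 ± 0.17 over all enriched peaks of the series (SD, n = 3). The run was higher than the rest in each library, by little in library 1. The spread of the run's level over samples is as large as its distance from the others. That spread is of the level and does not measure how much the difference within a library varied. Library 1, with the lowest mean in the run, also had the most input reads there, 63 against at most 31 in another library, and the part of this in the fold was not tested.

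Merging enriched peaks of the 4 libraries that share a base gave 39 regions in CMIP. Of these, 14 (35.9%) were enriched in at least 3 of 4 libraries, here called reproducible, where 22.7% of all 7472 regions of the series were. This takes libraries 3 and 4 separately, so it can be met by 2 of the 3 samples. The run holds 7 reproducible regions of its 8. The rest of CMIP has 7 of 31, or 22.6%, a share near that of the series. All 4 libraries were enriched in 10 of the 14, which are 5 in the run and 5 in the rest. Without library 3, CMIP had 22 regions enriched in 2 or more of libraries 1, 2 and 4. With all 4 libraries kept, 20 were enriched in at least 2, so much of the rise goes with the lower number required. With libraries 3 and 4 as 1 sample, 20 regions of CMIP, 8 of them in the run, were enriched in at least 2 of 3 samples. Shares over the series were not computed at these settings.

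The 8 regions of the run lie within 1393 bases and are described from the 5′ end. The first, 81610500 to 81610596, had a log2 fold of 4.52 in library 2, 5.54 in library 3 and 5.54 in library 4. Library 1 listed no peak there. In libraries 3 and 4 these folds rest on 22 and 32 immunoprecipitation reads over 1 input read each. Whether such an input was truly 1 read or was raised from 0 is not known.

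The second region, 81610701 to 81610774, stood at 4.55, 5.45, 3.26 and 4.30 in libraries 1, 2, 3 and 4, a mean of 4.59 ± 0.84 (SD, n = 3). Library 3 was lowest, and its peak of 9 bases with 9 immunoprecipitation reads over 2 input reads is the weakest of the run. With a −log10 p of 3.004 it is also the one nearest to the threshold. The third region, 81610927 to 81610998, had 4.45, 5.58, 5.67 and 4.83, a mean of 5.10 ± 0.58 (SD, n = 3). Here 62, 46, 24 and 39 immunoprecipitation reads stood over 9, 1, 1 and 2 input reads.

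The fourth region, 81611027 to 81611062, was enriched in libraries 2 and 4 alone, at 5.19 and 4.83, and libraries 1 and 3 listed no peak there. It is the member of the run that was not reproducible. The fifth, 81611098 to 81611155, reached 4.08, 6.31, 5.61 and 4.71 in libraries 1 to 4, a mean of 5.18 ± 1.11 (SD, n = 3), with library 2 highest. The sixth, 81611337 to 81611392, was the lowest reproducible region of the run, at 3.67, 4.15 and 3.91 in libraries 1, 2 and 4, and library 3 listed no peak there. It fell outside the rule for named regions and is given because the run would otherwise be incomplete.

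The seventh region, 81611430 to 81611553, had the closest edges of the 5 reproducible CMIP regions with 1 enriched peak in every library. The starts of its 4 peaks lie within 3 bases of each other and their ends within 8, and each peak is 116 to 123 bases wide. Its log2 fold was 4.40, 4.44, 7.46 and 6.34 in libraries 1, 2, 3 and 4, a mean of 5.25 ± 1.43 (SD, n = 3). The sample of libraries 3 and 4 was above both others. Immunoprecipitation reads were 113 over 17 input reads in library 1, 187 over 9 in library 2 and 167 over 3 in library 4. In library 3 the reads can be 83 over 1 up to 332 over 4. Libraries 3 and 4, with the higher folds, had at most 4 input reads here, and the part of this in the fold was not tested.

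The eighth region, 81611595 to 81611892, was the widest and the highest of the run. It holds 2 abutting or near peaks in each library. Its highest peak had a log2 fold of 4.99, 6.54, 6.97 and 7.61 in libraries 1, 2, 3 and 4, a mean of 6.27 ± 1.17 (SD, n = 3). In libraries 1, 2 and 4 this was the highest peak of the whole run, and in library 3 the seventh region was higher. In library 1 it rests on 60 immunoprecipitation reads over 6 input reads, and in libraries 2, 3 and 4 the −log10 p is at a ceiling that many deposited values share, so the input is only known to be 1 to 4 reads.

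**Figure D2:**
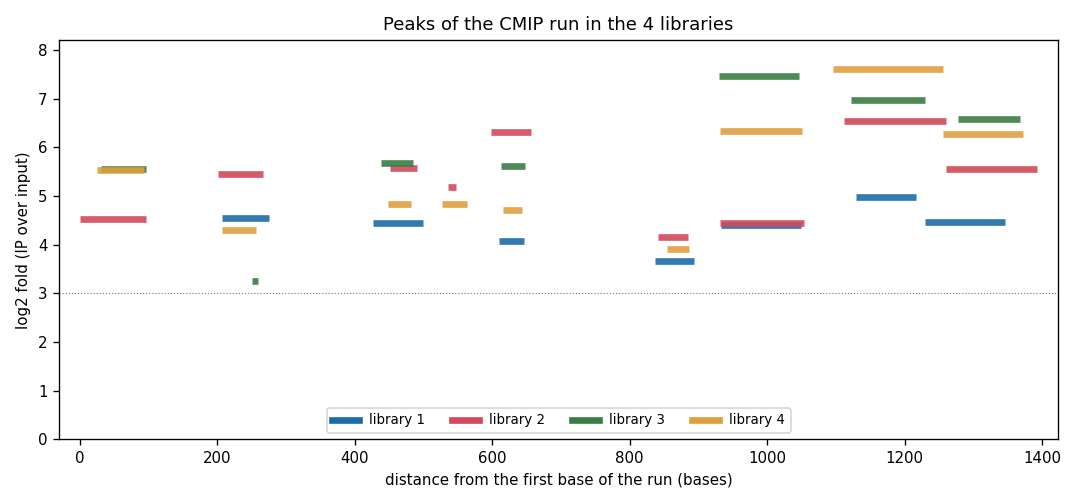
Each bar is 1 listed peak of the run, drawn over its width in bases from the first base of the run (horizontal axis) at its log2 fold of immunoprecipitation over input (vertical axis), coloured by eCLIP library. The dotted line is the log2 threshold of 3, and all 32 bars lie above it. The highest bars are those of libraries 3 and 4 near the 3′ end, where library 1 (blue) lies low.

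The centres of neighbouring reproducible regions in the run are 127 to 252 bases apart, with a median of 207. Their median width is 74 bases, and together they cover 779 bases, or 55.9% of the run. As listed, the reproducible regions are thus a row with gaps between them. The fourth region, enriched in libraries 2 and 4, lies in one of these gaps and is not counted here. The gaps before the seventh and eighth regions are 37 and 41 bases, shorter than the reads of 75 nt. Whether the regions are separate sites of contact was not tested.

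Over the whole run library 1 held 414 immunoprecipitation reads and 63 input reads, a pooled log2 fold of 4.38. Its 95% interval was 3.998 to 4.79 (exact binomial, counting error only). The run was chosen by the fold and p of these peaks, so the interval is a description and no test. Reads that span 2 peaks may be counted in both. The other libraries have peaks at the ceiling, so only bounds can be given. These were 682 to 1289 immunoprecipitation reads over 22 to 31 input reads in library 2, 265 to 826 over 8 to 17 in library 3, and 558 to 1119 over 17 to 23 in library 4.

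The run is 0.52% of the window. It held 35.3% to 36.7% of the immunoprecipitation reads over all listed CMIP peaks in library 1, 17.1% to 30.2% in library 2, 29.5% to 66.3% in library 3 and 31.1% to 58.3% in library 4. Peaks of the rest without a read number, 7, 34, 4 and 8 of them, are left out of these shares. Library 2, with the most listed peaks, has the lowest share at the lower bound.

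In library 1 the nearest listed peak before the run is 11440 bases away and the nearest after it 10452 bases. In library 2 these distances are 545 and 9172 bases, in library 3 they are 25842 and 27212, and in library 4 they are 346 and 59793. The peaks 545 and 346 bases away had log2 folds of 2.06 in library 2, with 8 immunoprecipitation reads over 2 input reads, and 3.13 in library 4, with 6 over 1. Anywhere within the run, the weakest peak had a log2 fold of 3.67, 4.15, 3.26 and 3.91 in libraries 1, 2, 3 and 4.

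Enriched peaks at most 1000 bases apart in any library formed 10 groups along CMIP. The run is 1 of 4 groups with enriched peaks in all 4 libraries. Of the other groups, 2 were present in 3 libraries, 2 in 2 libraries and 2 in 1 library. The group most like the run lies about 91 kb after its start, from 81701473 to 81703690, and holds 36 of the 78 enriched peaks of the rest of CMIP.

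This downstream group had 6, 16, 6 and 8 enriched peaks in libraries 1, 2, 3 and 4. They come from 7, 16, 7 and 8 listed peaks, so nearly every listed peak was enriched here too, as in the run. The share over all listed peaks of the series was 15.9%, 5.38%, 12.6% and 12.7%. Groups were formed from enriched peaks, so these counts carry no test. The mean log2 fold of enriched peaks was 4.37, 5.30, 5.87 and 5.37 in the run, against 3.71, 4.63, 5.15 and 4.67 in the downstream group. The run was higher by 0.67, 0.68, 0.72 and 0.70, a mean of 0.68 ± 0.022 (SD, n = 3). The difference varied far less between libraries than either level did. The run was chosen for its height, so no test is given.

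Reads in the downstream group were 173 for immunoprecipitation and 40 for input in library 1. They were 1104 to 1428 over 48 to 57 in library 2, 208 to 316 over 13 to 16 in library 3 and 397 to 631 over 25 to 33 in library 4. In library 1 the run held more immunoprecipitation reads than the group. In libraries 2, 3 and 4 the bounds of both overlap, so which held more is not known.

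The downstream group contained 3 reproducible regions, and all 3 were enriched in the 4 libraries. The region 81702367 to 81702663 had log2 folds of 3.75, 5.11, 6.26 and 3.96 in libraries 1, 2, 3 and 4, a mean of 4.66 ± 0.78 (SD, n = 3). In library 3 it was a single peak of 258 bases, whereas the others listed several narrower ones. The region 81702770 to 81702854 had 3.40, 4.45, 5.26 and 5.16, a mean of 4.35 ± 0.91 (SD, n = 3).

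The widest region, 81703031 to 81703443, had 4.08, 5.56, 5.59 and 5.65 in libraries 1 to 4, a mean of 5.09 ± 0.87 (SD, n = 3), from 15 peaks of the 4 libraries. Library 1 was lowest in each of these 3 regions. Library 2 alone added 6 enriched peaks before these regions and 2 after them.

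**Figure D3:**
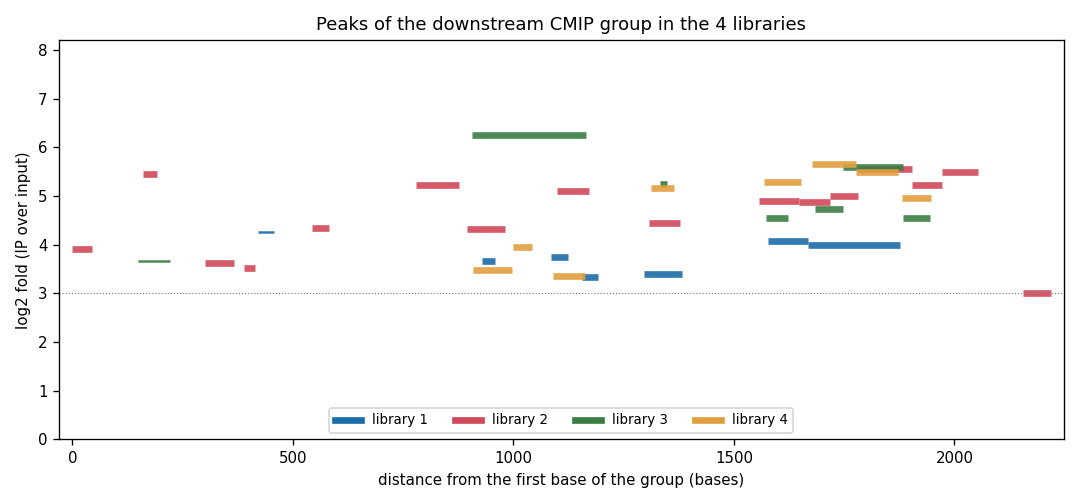
Each bar is 1 listed peak of the downstream CMIP group, drawn over its width in bases from the first base of the group (horizontal axis) at its log2 fold (vertical axis), coloured by eCLIP library. Thick bars are enriched and thin bars are not, and the dotted line is the log2 threshold of 3. The 4 libraries meet in the second part of the group, and bars of library 2 (red) alone are enriched in the first part.

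Before the run, 2 groups were enriched in all 4 libraries. The one from 81532168 to 81533002 holds the region 81532757 to 81533002, with log2 folds of 5.22, 4.995, 6.21 and 6.10 in libraries 1, 2, 3 and 4 and a mean of 5.46 ± 0.62 (SD, n = 3). It had 367 immunoprecipitation reads over 12 input reads in 1 peak of library 2, the most of any CMIP peak with a read number. Its mean is above that of 6 of the 7 reproducible regions of the run, and the eighth region is above it. With libraries counted one by one, the seventh region was also above it, at 5.66 in the seventh region against 5.63. Next to it, 81532168 to 81532241 was enriched in libraries 1 and 4, at 5.08 and 3.42, and 81532329 to 81532439 in libraries 1 and 2, at 5.37 and 4.65.

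The other of these groups is 1 region, 81492563 to 81492746, with 5.67, 5.24, 3.82 and 4.48 in libraries 1 to 4, a mean of 5.02 ± 0.78 (SD, n = 3). Library 1 was highest here, while it was lowest or absent in 6 of the 7 reproducible regions of the run. The mean log2 fold of the run minus that of this group was -1.29, 0.17, 2.05 and 0.89 in libraries 1, 2, 3 and 4. For the group at 81532168 it was -0.78, 0.85, 0.023 and 0.39. The order of the run and these groups thus differed between libraries, unlike its order against the downstream group.

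A region at 81482891 to 81483220 was enriched in libraries 1, 2 and 3, at 4.67, 4.27 and 4.54. Library 4 listed peaks there with a log2 fold of up to 3.54 but none with a sufficient p. A further 2 regions were enriched in 2 libraries each, 81494413 to 81494480 in libraries 1 and 2 at 5.13 and 4.06, and 81584794 to 81584942 in libraries 1 and 2 at 4.25 and 4.82. The group around 81584794 held 4 enriched peaks of 4 listed in library 1 and 1 of 3 in library 2.

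At the 3′ end of the window, a group from 81744219 to 81745302 had 2, 6, 0 and 1 enriched peaks in libraries 1, 2, 3 and 4. Listed peaks in this group numbered 3, 6, 4 and 4. Its region 81744767 to 81744880 had log2 folds of 4.67, 3.63 and 3.35 in libraries 1, 2 and 4, resting on 8, 71 and 14 immunoprecipitation reads over 1, 6 and 2 input reads. In library 3 a peak was listed there at 3.41 but did not pass on p. The region 81744219 to 81744350 was enriched in libraries 1 and 2, at 3.84 and 3.55. Over the whole group, the mean of enriched peaks over samples was 3.80 ± 0.45 (SD, n = 3). The sample of libraries 3 and 4 rests here on 1 peak of library 4, at 3.35. This mean was the lowest of the groups with at least 3 libraries, but in libraries 1 and 2 another of these groups was lower.

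The other 201 listed peaks of CMIP, all outside the run, were not enriched. Of these, 14, 4, 12 and 11 in libraries 1, 2, 3 and 4 reached a log2 fold of 3 but not the p. In library 2, 5 peaks lay below input, the lowest at -0.79, and libraries 1, 3 and 4 listed 0 such peaks.

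Peak width was not used in choosing the run. Enriched peaks of the run had a median width of 72, 65, 65 and 50 bases in libraries 1, 2, 3 and 4, against 84, 73, 79.5 and 84 in the rest of CMIP. The difference, run minus rest, was -12, -8, -14.5 and -34 bases, narrower in 4 of 4 libraries. Over samples it was -14.8 ± 8.47 bases (SD, n = 3), with an exact two-sided sign-flip permutation p = 0.25. This is the smallest p that 3 samples allow, so the test cannot decide. Over all listed peaks the sign turned, with the run wider by 12.6 bases. Listed peaks of the rest had a median width of 55, 53, 49 and 48.5 bases. Every listed peak of the run was enriched, so the threshold changed the widths of the rest alone. The sign of the difference thus depends on that threshold.

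The series has 1049 runs of reproducible regions at most 1000 bases apart, and 64 of them hold at least 4 regions. With 7 regions the CMIP run is exceeded by 6 runs, and 6 runs including it have as many. Of the 64 runs, 31 have a higher mean log2 fold. The 3 runs elsewhere that are nearest in number of regions and span each hold 7 regions.

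The means below are over the regions enriched in each library. Of the 7 regions of each run, 5 in CMIP and 6, 6 and 5 on chromosomes 2, 7 and 16 were enriched in all 4 libraries. The CMIP run had a mean log2 fold of 4.36, 5.28, 5.75 and 5.32 in libraries 1, 2, 3 and 4. This leaves out its first region in library 1 and its sixth in library 3. The run on chromosome 2, 134908687 to 134910096 on the plus strand, had 5.16, 6.26, 6.53 and 6.15, higher in 4 of 4 libraries. The run on chromosome 7, 158573784 to 158575201 on the minus strand, had 4.61, 5.77, 6.81 and 6.57, again higher in 4 of 4. The third, also on chromosome 16, 50612960 to 50614047 on the plus strand, had 4.03, 5.21, 5.01 and 5.35, lower in libraries 1, 2 and 3 and higher in library 4.

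Over samples these means are 5.06 ± 0.62 for the CMIP run and 5.92 ± 0.66, 5.69 ± 1.04 and 4.81 ± 0.68 for the runs on chromosomes 2, 7 and 16 (SD, n = 3). Library 1 is lowest in all 4 runs. The CMIP run minus the run on chromosome 2 was -0.80, -0.98, -0.78 and -0.82 in libraries 1, 2, 3 and 4, a mean of -0.86 ± 0.10 (SD, n = 3). Minus the run on chromosome 7 it was -0.26, -0.49, -1.06 and -1.25, and minus the run on chromosome 16 it was 0.33, 0.072, 0.74 and -0.029. The first of these differences was thus nearly constant, and the others varied between libraries. The sets of regions behind the means differed between libraries, and differences over the same regions were not computed. All were chosen for recurring high values, so no test of their differences is given.

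**Figure D4:**
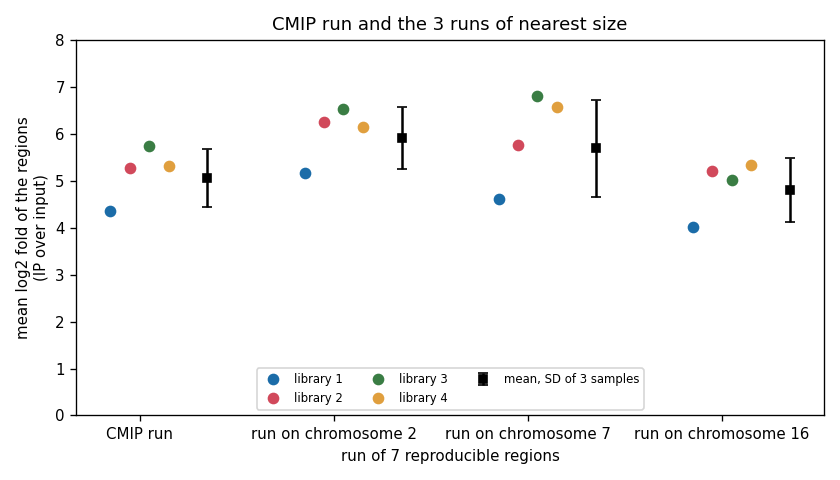
Mean log2 fold (vertical axis) in the CMIP run and the 3 runs of nearest size, by eCLIP library (coloured points). Each point is over those of the run's 7 regions that were enriched in that library. Black squares and bars give the mean and SD over 3 samples. Library 1 (blue) is the lowest point in every run, and the CMIP run lies below the run on chromosome 2 in each library.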

How the data were processed

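Each of the 4 eCLIP libraries has 1 peak list that the authors deposited, with position, strand, a −log10 p value and a log2 fold of immunoprecipitation over input per peak. Positions are on hg19, per the submitters' processing notes. The peak caller is, like the aligner and the choice of input, not given in the sources used here. Adjoining peaks share an end and a start, so starts were read as counted from 0 and are printed counted from 1.

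Read numbers were worked back as the whole numbers whose ratio, times 1 depth factor per library (3.18, 1.04, 2.12 and 1.46), gives the deposited log2 fold, and whose two-sided binomial test, or chi-square test with continuity correction from 5 reads on both sides, gives the deposited −log10 p within 0.003 of its size. Peaks with −log10 p below 0.5 (a minimum added after wrong matches were seen), or at either of the ceilings 15.66 and 400, have no unique number. Peaks with a log2 fold of 0 or less were left out too. At the lower ceiling, input reads of 1 to 4 were allowed. Read numbers were found for 94.5% to 99.9% of the remaining peaks. In library 2 those remaining were 36886 of 118375 listed peaks. The procedure was tested on simulated reads, but most of these had higher read numbers than most listed peaks. That test thus says little about peaks with few reads. It cannot show how the authors computed their values.

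Regions join enriched peaks of any library that share a base on 1 strand, and a region's value in a library is its highest enriched peak. The named regions are the 12 reproducible CMIP regions with the highest mean log2 fold, peaks outside the run enriched in at least 2 libraries, and the peaks next to the run. Members, lists and thresholds were chosen with earlier results of these data known. Python 3.11.15, pandas 2.3.3, numpy 2.4.6, scipy 1.17.1 and matplotlib 3.10.9 were used. Alternatives changed the fold, the p, the overlap, the number of libraries and the libraries used.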

Additional observations from a re-analysis of the deposited data

Results flagged for a closer look

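Of 21 quantities compared over the 4 libraries, 1 had a library far from the others by Dixon's criterion for 4 values, where chance gives about 1.05. In the region 81703031 to 81703443 of the downstream group the log2 fold was 4.08 in library 1, and the next lowest was 5.56 in library 2. The gap makes up 0.944 of the whole range. With libraries 3 and 4 counted as 1 sample, 3 values remain, too few for this criterion, so the distance of library 1 rests on counting them separately.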

How the results depend on the processing

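No paired analysis was possible because each list gives eCLIP over Input as 1 fold per peak, with no separate columns to pair by number. Differences between stretches of CMIP were taken within each library. The number of reproducible regions in CMIP, 14, was 15 to 22 when a library was dropped in turn and enrichment in 2 of those kept was enough. It was 22 without library 3, a setting that also relaxes the number of libraries required. It stayed between 10 and 20 under the other alternatives run. In the run it stayed between 5 and 8, against 7. Mean enriched peaks per library stayed between 7.67 and 8.33 in the run, against 8, and between 15 and 22.7 in the rest, against 19.5. The mean log2 fold of the run stayed between 4.997 and 5.46, against 5.10. The width difference was 12.6 bases over all listed peaks, against -14.8, and -18.1 to -11.5 with each library left out. Depth limits folds with 1 input read.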

Other observations

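Listed peaks were sparse between the run and the downstream group in each library. The 89.6 kb between the run and the downstream group held 0.447, 1.34, 0.112 and 0.223 listed peaks per 10 kb in libraries 1, 2, 3 and 4, against 3.17, 5.96, 2.19 and 3.25 in the 132 kb before the run. Of the 4, 12, 1 and 2 peaks listed between them, 0, 1, 0 and 0 were enriched. In steps of 20 kb from the start of the window, the first 3 steps held 64, 35 and 43 listed peaks over the 4 libraries, the step with the run held 38, the 4 steps after it held 3, 2, 4 and 3, and the step with the downstream group held 49. After the downstream group, 1.18, 2.84, 1.18 and 1.65 peaks per 10 kb were listed in libraries 1 to 4. The second step is the one where peaks were frequent and 0 of 35 were enriched. The 5 peaks below input in library 2 all lay 89.4 to 106 kb before the run. No cause was tested, and how much of CMIP's RNA these stretches give in input is not shown by peak lists.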
